A study of Mus musculus with 16 samples.

Results

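TCRBV14-01 (gene symbol Trbv14) is one of the V genes of the mouse T cell receptor β chain (TCRβ) locus, and its rearrangements were followed in T cells of 16 subcutaneous KPC-Luc tumors. The gene was chosen by its share of productive templates, which differed between Control and Ant08+PD1 tumors, so that difference is described here without a test. All rearrangements assigned to it were taken from every sample. It was 1 of 33 V genes with a productive template, and it held 3271 of 126344 productive rearrangements and 38511 of 526888 productive templates (7.31%).

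KPC-Luc is a luciferase-expressing mouse pancreatic ductal adenocarcinoma line, here grown under the skin of female C57BL/6 mice, and each group held 4 tumors. Control mice received a scrambled peptide and isotype IgG, Ant08 mice received ANT008, a peptide antagonist of the receptors for vasoactive intestinal peptide, with isotype IgG, PD1 mice received the scrambled peptide with anti-PD-1, and Ant08+PD1 mice received both agents. Every mouse therefore had a daily subcutaneous injection of 10 µg of peptide and an intraperitoneal injection of 200 µg of antibody every 3 days over 10 days. Per the labels, T cells were pulled out of the tumor suspension with magnetic beads against CD90.2 at a purity of 80 to 85%, in a protocol text that names another assay, nCounter, as its readout. The study's own account of its TCR sequencing starts from harvested tumors and names no T cell isolation. The mice were young adults by the methods of the study. Only TCRβ rearrangements were read, so the cell type label could not be set against other marker genes.

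A TCRβ chain is made by joining 1 V, 1 D and 1 J gene segment, with bases trimmed from the ends and random bases added at the junctions. The joined stretch, the third complementarity-determining region (CDR3), touches the peptide that the receptor reads, and cells descended from 1 T cell carry the same rearrangement and form a clone. A rearrangement that keeps the reading frame is called productive. One that loses the frame makes no receptor chain, yet it stays in the cell beside a productive rearrangement on the other chromosome, and so it serves as a picture of V gene use before selection. In the RefSeq annotation Trbv14 is a V segment on chromosome 6 between Trbv13-3 and Trbv15.

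A unique rearrangement is 1 distinct sequence of 87 nucleotides in a sample, and its template count is the service's estimate of starting molecules. Productive templates ranged from 7180 in PD1 replicate 4 to 72588 in PD1 replicate 3, and V genes left unresolved took up at most 0.0433% of them. The sources name DNA in one place and RNA in another. If RNA was amplified, more cells of a clone and more transcripts per cell cannot be told apart.

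The 4 TCRBV14-01 rearrangements with the largest share of a tumor's productive templates are printed because they set most of the gene's share in their tumors. The capitals mark the CDR3 from its first cysteine codon, and the read stops 1 codon before the closing phenylalanine.
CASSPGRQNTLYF, PD1 replicate 1: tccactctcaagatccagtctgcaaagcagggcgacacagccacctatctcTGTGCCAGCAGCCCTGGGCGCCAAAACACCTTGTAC
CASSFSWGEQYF, Control replicate 1: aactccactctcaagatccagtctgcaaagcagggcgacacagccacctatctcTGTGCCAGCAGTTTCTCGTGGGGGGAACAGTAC
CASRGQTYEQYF, PD1 replicate 3: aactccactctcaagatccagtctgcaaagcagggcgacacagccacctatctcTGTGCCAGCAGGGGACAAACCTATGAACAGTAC
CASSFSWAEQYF, Control replicate 4: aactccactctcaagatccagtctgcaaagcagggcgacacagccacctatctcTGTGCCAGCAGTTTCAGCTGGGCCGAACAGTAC
Leaving out sequences that repeat the CDR3 bases of a more abundant rearrangement of the same tumor, 265 productive rearrangements had no V base trimmed, and in 262 of them the CDR3 opened with TGTGCCAGCAGTTTCT, which encodes CASSF.

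TCRBV14-01 took up 15.9%, 4.20%, 1.72% and 12.6% of productive templates in Control replicates 1 to 4, a mean of 8.59% ± 6.72 (SD, n = 4). Its share was 12.3%, 1.51%, 2.57% and 9.75% in the Ant08 tumors, a mean of 6.54% ± 5.32 (SD, n = 4). The PD1 tumors held 19.5%, 8.05%, 13.2% and 2.67%, a mean of 10.8% ± 7.18 (SD, n = 4). In each of these 3 groups at least 1 tumor was under 3% and at least 1 was over 12%. The Ant08+PD1 tumors held 2.88%, 2.05%, 1.76% and 1.71%, a mean of 2.10% ± 0.542 (SD, n = 4). The Ant08+PD1 values sat close together at the low end of the other groups, whose lowest tumors overlapped them.

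Among the V genes of each tumor, TCRBV14-01 ranked first by productive templates in 4 tumors (Control replicate 1, Ant08 replicate 1 and PD1 replicates 1 and 3) and at rank 19 in Ant08 replicate 2. By its mean share over the 16 tumors (7.02% ± 6.01, SD) it stood at rank 5, below TCRBV16-01 at 7.77% and just above TCRBV13-01 at 7.01%, and all 3 lay within each other's spread. By its mean share of unique productive rearrangements (2.64% ± 0.344, SD, n = 16) it stood at rank 18, between TCRBV31-01 at 2.86% and TCRBV17-01 at 2.52%.

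**Figure D1:**
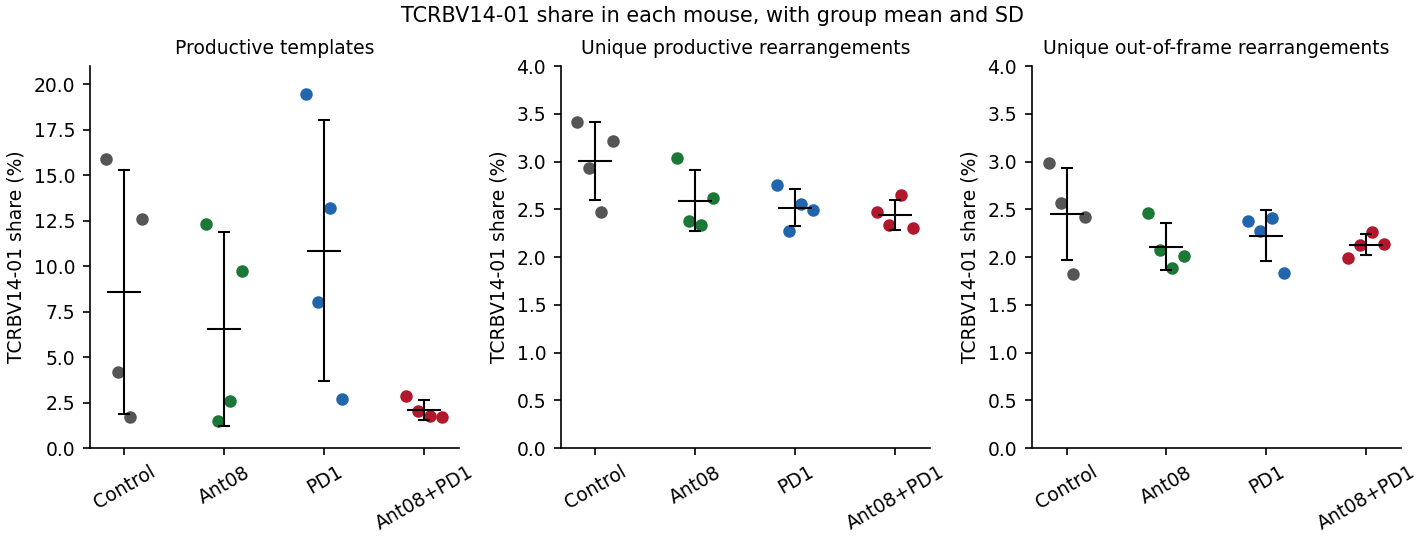
The TCRBV14-01 share in percent in each of the 16 tumors (points), with the group mean (long bar) and SD (whiskers), for productive templates on the left, unique productive rearrangements in the middle and unique out-of-frame rearrangements on the right, where the vertical scale is shorter. Template shares run from 1.51% to 19.5%, whereas shares of unique productive rearrangements stay between 2.27% and 3.41%.

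Counted once each, TCRBV14-01 rearrangements made up a narrow share in every tumor. The share of unique productive rearrangements was 3.41%, 2.93%, 2.47% and 3.22% in Control, 3.04%, 2.38%, 2.33% and 2.62% in Ant08, 2.75%, 2.27%, 2.56% and 2.49% in PD1, and 2.47%, 2.33%, 2.65% and 2.30% in Ant08+PD1. The Control mean was 3.01% ± 0.407 (SD, n = 4) against 2.44% ± 0.158 (SD, n = 4) with Ant08+PD1, and the groups overlapped. The ratio of the Control mean to the Ant08+PD1 mean was 4.10 for templates and 1.23 for unique rearrangements. Part of the unique count came from sequences that matched a more abundant rearrangement of the same tumor in J gene and in every base of the CDR3, at 1 or 2 templates each. These near copies were 5.22 to 16.8% of TCRBV14-01 rearrangements in Control and 1.22 to 2.79% in Ant08+PD1 tumors, and without them the ratio was 1.13.

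In edgeR's fit of all 33 V genes the log2 fold change of TCRBV14-01 templates in Ant08+PD1 over Control was -2.03 (SE 0.59), given as a description since this difference chose the gene. The same log2 fold change was -1.0 (SE 0.32) without the leading rearrangement of each V gene in each tumor, -0.27 (SE 0.10) for unique rearrangements and 0.36 (SE 0.43) for out-of-frame templates.

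PD1 and Ant08, whose difference did not choose the gene, were compared in the same fit. The mean share was 6.54% in Ant08 and 10.8% in PD1, and the log2 fold change of Ant08 over PD1 was -0.73 (SE 0.57, edgeR quasi-likelihood adjusted p 0.830). The difference was not larger than the spread between the tumors, and it turned to 0.62 (SE 0.32) once the leading rearrangement of each V gene was left out of each tumor. Of the 33 V genes tested, edgeR called 0 between Ant08 and PD1 (0%), 1 had an unadjusted p under 0.05, and DESeq2 also called 0. In simulated counts the edgeR step called 43.75% of V genes planted at a log2 fold change of 1.33 and 95% at 2.15. Differences of the size seen here could therefore be missed.

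The high template shares rested on a few clones. TCRBV14-01 had 14 clones of at least 1% of their tumor's productive templates, in 8 tumors, and together they held 70.2% of all its productive templates. Control tumors held 4 of them, Ant08 tumors 5, PD1 tumors 5 and Ant08+PD1 tumors 0. Clones of this size were not counted for the other V genes, so whether these counts are particular to TCRBV14-01 was not tested. The counts of Control and Ant08+PD1 are also bound up with the template shares that chose the gene. The largest was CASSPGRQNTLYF in PD1 replicate 1 at 17.5% of productive templates (5640 templates, Wilson 95% confidence interval 17.1 to 17.9%). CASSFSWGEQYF took up 14.3% in Control replicate 1 (13.9 to 14.8%), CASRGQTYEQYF 9.47% in PD1 replicate 3 (9.26 to 9.68%) and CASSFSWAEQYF 8.19% in Control replicate 4 (7.91 to 8.47%). These intervals cover counting error only.

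In the other tumors the leading TCRBV14-01 clone was smaller. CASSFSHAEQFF led in Ant08 replicate 4 at 5.62% and in PD1 replicate 2 at 5.51%, and a CDR3 of 15 residues with TCRBJ02-01 led in Ant08 replicate 1 at 4.24%. A CDR3 of 15 residues with TCRBJ01-04 led in Control replicate 2 at 1.07%, and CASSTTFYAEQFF in Control replicate 3 at 0.317%. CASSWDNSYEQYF led in Ant08 replicate 3 at 0.555%, and CDR3s of 15 residues with TCRBJ02-07 led in Ant08 replicate 2 at 0.161% and in PD1 replicate 4 at 0.766%. The leading clones of the 4 Ant08+PD1 tumors were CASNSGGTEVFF at 0.308%, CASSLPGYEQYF at 0.355%, a CDR3 of 14 residues with TCRBJ02-04 at 0.643% and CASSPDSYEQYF at 0.476%. The leading clone held from 10.7% of a tumor's TCRBV14-01 templates, in Ant08 replicate 2, to 90.4%, in Control replicate 1.

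Once the 3 largest TCRBV14-01 rearrangements of every tumor were taken out, the gene held 1.61% ± 0.573 of productive templates in Control, 1.44% ± 0.395 in Ant08, 1.42% ± 0.344 in PD1 and 1.34% ± 0.553 in Ant08+PD1 (SD, n = 4 each). The ratio of Control to Ant08+PD1 was then 1.21. Taking out only the leading rearrangement left 1.58. Such a step lowers tumors with large clones most, so part of the fall in the ratio is built into it.

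A set of closely alike CDR3s made up 6 of the 14 clones of at least 1%, and one of them led in 4 of the 16 tumors. They had 12 residues and read CASSF, then serine or glycine, any residue, alanine or glycine, and then EQYF or EQFF. This family was described after the leading clones were seen, so no test is attached to it. It held 11 CDR3 sequences in 13 tumors and 11897 templates, 30.9% of all productive TCRBV14-01 templates, from 57 rearrangements, of which 19 remained without near copies. The mean was 623 templates per rearrangement against 8.63 for the other TCRBV14-01 rearrangements, both without near copies, and the medians were 51 and 1. Since the pattern was written from leading clones, a larger size of its members is built into that choice. The same pattern occurred in 40 rearrangements of other V genes, which held 46 templates in all and at most 2 each, and 34 of these 40 carried exactly the CDR3 bases of a TCRBV14-01 family member of the same tumor.

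The family held 3746, 2, 24 and 3431 templates in Control replicates 1 to 4, and 1555, 0, 52 and 1174 in the Ant08 tumors. It held 1, 1803, 92 and 9 templates in the PD1 tumors, and 1, 7, 0 and 0 in the Ant08+PD1 tumors. It passed 100 templates in 2 Control, 2 Ant08, 1 PD1 and 0 Ant08+PD1 tumors. Where it was absent, a count of 0 allows a share of up to 0.00911% in Ant08 replicate 2, 0.00511% in Ant08+PD1 replicate 3 and 0.00829% in Ant08+PD1 replicate 4. Without the family the ratio of Control to Ant08+PD1 mean shares fell from 4.10 to 1.28, and the log2 fold change of Ant08+PD1 over Control was -0.43 (SE 0.51). The pattern was written from leading clones, so part of this fall is built into the choice. The mean share without the family was 2.67% in Control, 3.3% in Ant08, 9.36% in PD1 and 2.09% in Ant08+PD1. The log2 fold change of Ant08 over PD1 was then -1.44 (SE 0.52), a description only, since the family was named after its clones were seen. The family averaged 3.24% of productive templates in Ant08 and 1.49% in PD1, so taking it out lowered Ant08 more.

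**Figure D2:**
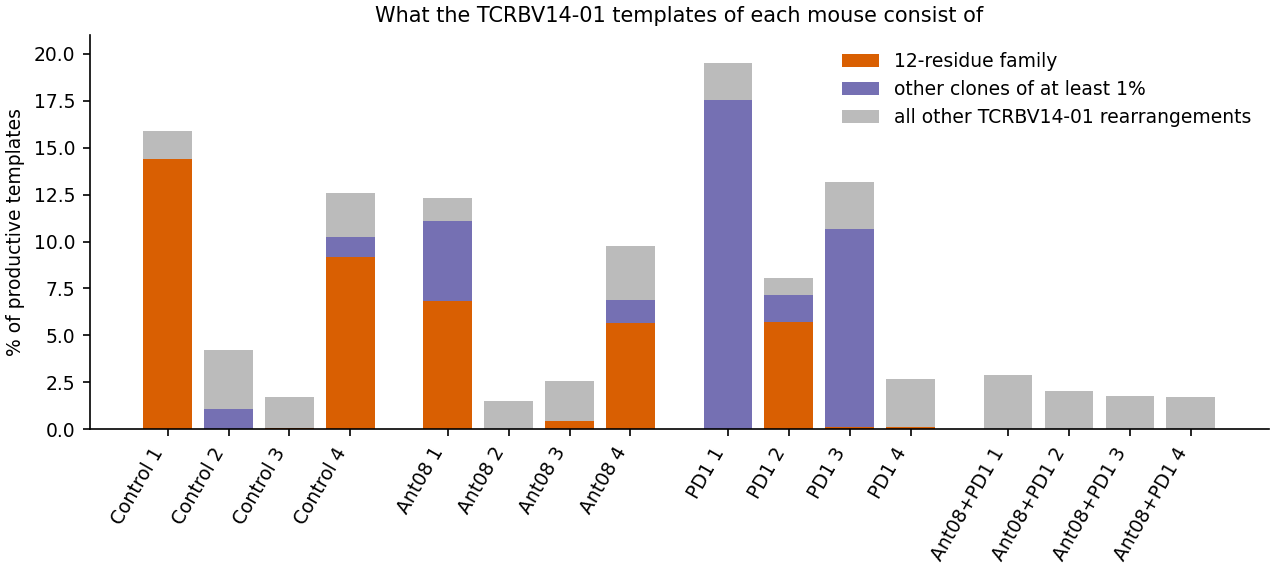
TCRBV14-01 templates of each tumor as a percent of its productive templates, split into the 12-residue family (orange), other clones of at least 1% (purple) and all other TCRBV14-01 rearrangements (grey). The grey part has similar means in the 4 groups, 2.14% in Control, 1.93% in Ant08, 1.98% in PD1 and 2.09% in Ant08+PD1, and the coloured parts are all but missing from the Ant08+PD1 tumors. The coloured parts were defined after their values were seen. Taking out every large clone lowers high shares most, so similar grey means are partly built in.

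The CDR3 bases of family members show how alike chains were built from different rearrangements. The lines are a selection. Among those left out are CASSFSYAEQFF (92 templates in PD1 replicate 3) and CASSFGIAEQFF (53 templates in PD1 replicate 2). The capitals mark the codons of residues 6 to 8, the only part that varied apart from the J gene.
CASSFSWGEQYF, Control replicate 1, 3730 templates: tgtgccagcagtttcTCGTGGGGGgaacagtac
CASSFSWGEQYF, Ant08 replicate 1, 637 templates: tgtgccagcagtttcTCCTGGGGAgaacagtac
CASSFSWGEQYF, Control replicate 3, 23 templates: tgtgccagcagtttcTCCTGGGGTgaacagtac
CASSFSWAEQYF, Control replicate 4, 3052 templates: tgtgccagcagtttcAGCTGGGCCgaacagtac
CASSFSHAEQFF, PD1 replicate 2, 1741 templates: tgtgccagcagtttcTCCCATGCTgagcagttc
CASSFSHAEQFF, Ant08 replicate 4, 1167 templates: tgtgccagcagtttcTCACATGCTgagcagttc
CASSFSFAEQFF, Ant08 replicate 1, 908 templates: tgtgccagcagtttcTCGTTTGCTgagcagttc
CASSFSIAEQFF, Control replicate 4, 367 templates: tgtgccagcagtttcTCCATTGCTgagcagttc
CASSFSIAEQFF, Ant08 replicate 3, 51 templates: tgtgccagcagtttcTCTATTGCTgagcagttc
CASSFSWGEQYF was encoded by 3 different CDR3 nucleotide sequences, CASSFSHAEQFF by 2 and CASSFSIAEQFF by 2. In every stretch printed here the first 15 bases match those of the untrimmed V end printed above. Apart from the J gene, the printed members differ from one another in the serine codon and the 2 codons after it. The members ending in EQYF used TCRBJ02-07, and those ending in EQFF used TCRBJ02-01.

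Few TCRBV14-01 rearrangements were shared between tumors base for base, and such sharing was not counted for the other V genes. Of its 3223 distinct productive nucleotide rearrangements, 38 were found in more than 1 tumor, 30 of them in 2. In 4 of the 38, a rearrangement with over 100 templates in 1 tumor stood at 1 or 2 templates in another, as for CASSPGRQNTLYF with 5640 and 1 templates. Whether such single templates were carried over between samples was not tested. At the protein level, 112 of its 2928 distinct CDR3s (3.83%) occurred in 2 or more tumors, against 7.19% of the pairs of V gene and CDR3 for the other V genes. The comparison takes no account of how many rearrangements a V gene has. The mean share of unique productive rearrangements was 2.64% for TCRBV14-01 and up to 10.1%, for TCRBV13-02, among the others.

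The most widespread TCRBV14-01 CDR3 was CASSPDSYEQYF, in 10 tumors with 733 templates and 7 CDR3 nucleotide sequences. It held 12, 1, 0 and 17 templates in Control, 0, 0, 0 and 101 in Ant08, 139, 46, 100 and 0 in PD1, and 121, 21, 0 and 175 in Ant08+PD1 replicates 1 to 4. Its templates were spread over all groups, and the highest shares were 0.486% in Ant08 replicate 4, 0.484% in Ant08+PD1 replicate 4 and 0.432% in PD1 replicate 1. The same CDR3 was also made with TCRBV29-01, which gave it 2189 templates. Its leading TCRBV14-01 rearrangement and 3 CDR3 stretches with other codons, in which the capitals mark the codons of residues 5 to 7, are as follows.
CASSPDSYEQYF, Ant08+PD1 replicate 4, 172 templates, whole read with the CDR3 in capitals: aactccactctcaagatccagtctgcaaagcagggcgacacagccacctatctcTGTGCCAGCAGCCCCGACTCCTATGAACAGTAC
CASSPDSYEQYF, PD1 replicate 1, 103 templates: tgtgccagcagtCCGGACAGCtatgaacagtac
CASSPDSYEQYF, PD1 replicate 3, 100 templates: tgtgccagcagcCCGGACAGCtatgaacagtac
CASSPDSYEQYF, PD1 replicate 1, 36 templates: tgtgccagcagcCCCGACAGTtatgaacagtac
The next most widespread were a CDR3 of 15 residues that opens with CASSFSGSS, in 9 tumors with 111 templates, and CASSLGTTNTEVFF, in 7 tumors with 57 templates. They were followed by CDR3s of 15 residues that open with CASSFSGTS and CASSFSGTG, each in 5 tumors, with 55 and 19 templates. None of the 5 reached 0.5% of productive templates in any tumor, and none belongs to the 12-residue family.

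The most frequent 4-residue strings in the middle of TCRBV14-01 CDR3s, counted once per CDR3, were about as frequent with the other V genes. GTGG occurred in 1.78% of TCRBV14-01 CDR3s and 2.05% of the others, DWGG in 1.71% and 2.03%, GLGG in 1.43% and 1.69%, RDWG in 1.40% and 1.5%, and GNYA in 1.26% and 1.10%. The start differed more, since CASSF opened 29.0% of TCRBV14-01 CDR3s and 2.46% of those of other V genes.

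The out-of-frame rearrangements served as the reference. TCRBV14-01 had 1560 of them with 3573 templates. Of these rearrangements, 127 lay within 2 edits of a productive one of the same tumor with at least 50 times the templates. This part of the reference was tied to the abundant clones. In replicates 1 to 4 it numbered 13, 15, 0 and 18 in Control and 17, 2, 0 and 11 in Ant08. It numbered 15, 10, 19 and 0 in PD1, and 2, 3, 1 and 1 in Ant08+PD1. Its share of unique productive rearrangements was 2.64% and its share of unique out-of-frame rearrangements 2.23%, a difference of 0.413 percentage points (SD 0.214, n = 16) that was above 0 in 16 of 16 tumors and ran from 0.00252 to 0.793 (sign-flip permutation test over tumors, two-sided, adjusted p 5.55e-05). The unadjusted p of 3.05e-05 is the smallest that all sign patterns of 16 differences can give. Of 20 V genes tested, 13 (65%) passed, some above and some below 0, so a difference in one direction or the other was common. TCRBV14-01 stood at rank 9 from the highest, next to TCRBV05-01 at 0.429 and TCRBV01-01 at 0.375 percentage points, and these 3 lay within each other's spread. Without the out-of-frame rows close to abundant productive ones, the TCRBV14-01 difference was 0.583 percentage points (sign-flip permutation adjusted p 5.55e-05). With near copies counted once among productive and out-of-frame rows it was 0.358 percentage points (sign-flip permutation adjusted p 0.000102).

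**Figure D3:**
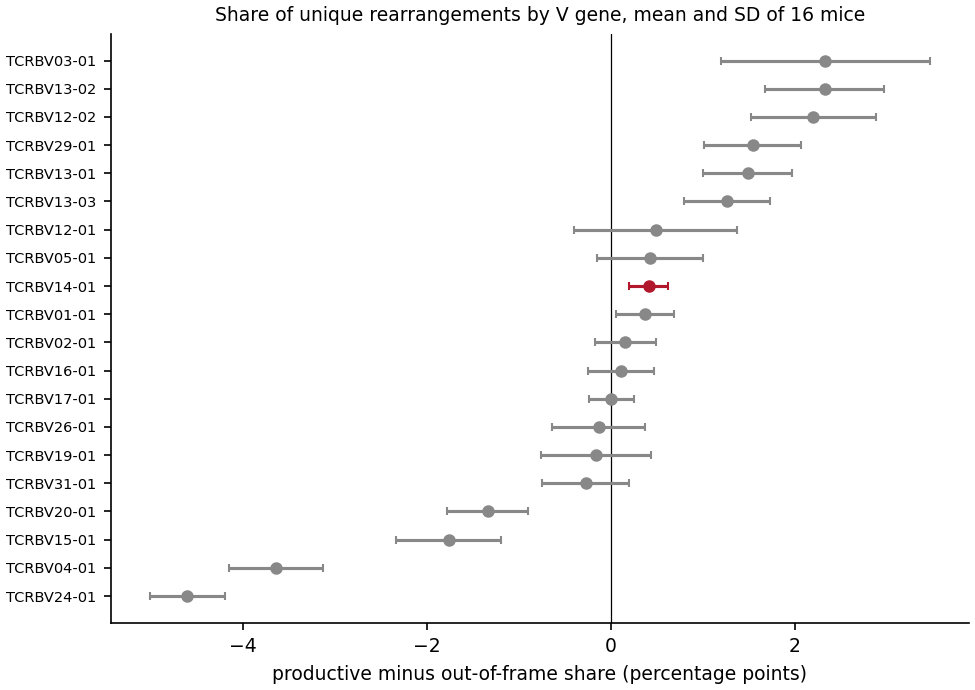
Productive minus out-of-frame share of unique rearrangements in percentage points, for the 20 V genes tested, as mean (point) and SD (whiskers) over 16 tumors, with TCRBV14-01 in red and 0 as the vertical line. TCRBV14-01 sits at 0.413, among genes of small positive difference, far from TCRBV24-01 at -4.60 and TCRBV03-01 at 2.33.

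By group the mean difference in unique share was 0.561 percentage points in Control, 0.485 in Ant08, 0.296 in PD1 and 0.309 in Ant08+PD1. Next, near copies and out-of-frame rows close to abundant productive ones were left out. The mean productive share was then 2.85% in Control, 2.52% in Ant08, 2.49% in PD1 and 2.51% in Ant08+PD1. The mean out-of-frame share was 2.13%, 1.90%, 2.09% and 2.15% in the same order. By templates, the productive share exceeded the out-of-frame share by 7.38 percentage points in Control, 5.18 in Ant08, 8.18 in PD1 and 0.545 in Ant08+PD1. The template values hold the shares that chose the gene and are given without a test. They were above 0 in 15 of 16 tumors, the exception being Ant08 replicate 2 at -0.399.

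Out-of-frame template shares of TCRBV14-01 were low in every group. They averaged 1.21% ± 0.131 in Control, 1.36% ± 0.462 in Ant08, 2.68% ± 1.42 in PD1 and 1.55% ± 0.396 in Ant08+PD1 (SD, n = 4 each). The highest, 4.73% in PD1 replicate 2, came mostly from 1 rearrangement of 355 templates, 62.8% of that tumor's out-of-frame TCRBV14-01 templates. The Control and Ant08+PD1 tumors overlapped, and the Control mean was the lower.

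J gene use of TCRBV14-01 was close to that of the other V genes. TCRBJ02-07 was its most frequent partner at 23.4% of unique productive rearrangements (SD 5.59 over 16 tumors, range 13.4 to 37.4%), against 21.1% with the other V genes, a difference that did not pass the test (sign-flip permutation, adjusted p 0.181). TCRBJ02-01 followed at 14.8%, against 13.0%. Among the 12 J genes tested, TCRBJ01-05 was the least frequent at 2.78%, against 3.14%.

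TCRBJ01-02 was the only one of the 12 J genes past the threshold. It made up 3.44% of TCRBV14-01 rearrangements and 5.59% of those of other V genes, a difference of -2.15 percentage points (SD 1.30, n = 16), lower in 16 of 16 tumors (sign-flip permutation test, two-sided, adjusted p 0.000452). Over all V and J gene pairs, 79 of 252 (31.3%) passed, and for TCRBV14-01 it was this 1 of 12. A tumor held 63 to 357 unique TCRBV14-01 rearrangements, which limits what could be seen. In out-of-frame rearrangements 0 of the 12 J genes passed, and weighted by templates TCRBJ01-02 did not pass and 3 others did. Template weights count the large clones most, and the gene was chosen by template share, so those 3 calls are no independent support.

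**Figure D4:**
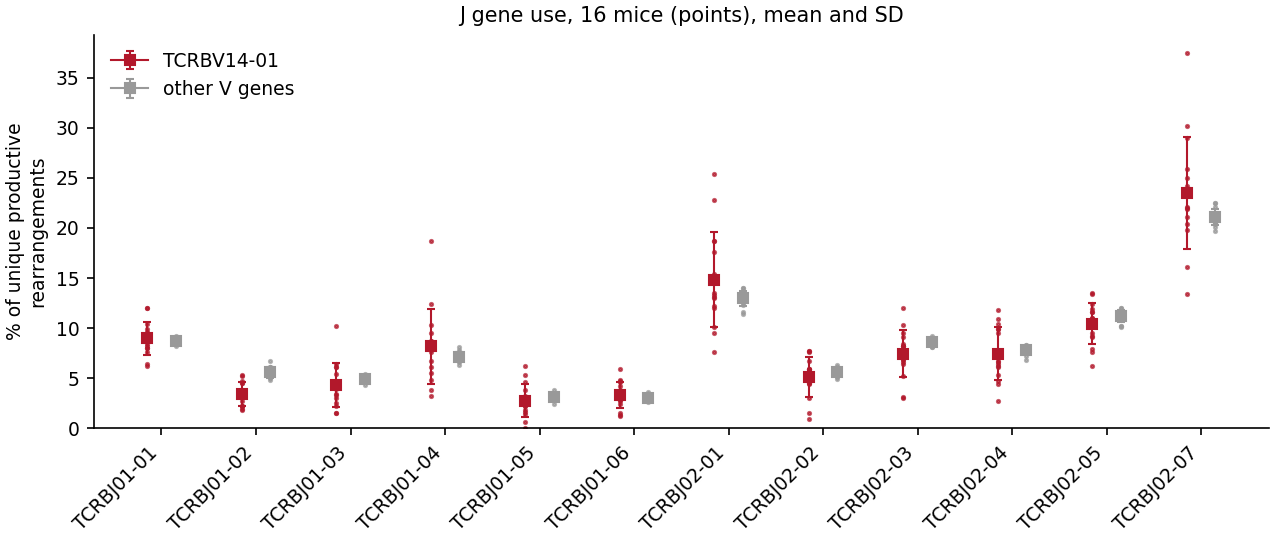
J gene use in percent of unique productive rearrangements for TCRBV14-01 (red) and for all other V genes pooled (grey), with 1 point per tumor, squares for the mean and whiskers for the SD over 16 tumors. The red and grey means lie close together, and TCRBJ01-02 is lower with TCRBV14-01 (3.44% against 5.59%).

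By templates the J use followed the large clones. TCRBJ02-07 held 45.2% of all productive TCRBV14-01 templates over the 16 tumors, TCRBJ02-01 19.3% and TCRBJ02-04, the J gene of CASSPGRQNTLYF, 17.0%.

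The CDR3s of TCRBV14-01 were slightly shorter than those of other V genes. Their mean length over unique productive rearrangements was 41.3 nucleotides against 42.0, a difference of -0.776 (SD 0.464, n = 16), shorter in 15 of 16 tumors (sign-flip permutation test, two-sided, adjusted p 0.000117). Most V genes differed from the rest in length, some longer and some shorter, 18 of 21 (85.7%). TCRBV14-01 stood at rank 17 from the longest, between TCRBV31-01 at -0.702 and TCRBV13-03 at -0.995. Weighted by templates the difference was -2.26 nucleotides. It is given without a test, since template weights count the large clones most and the gene was chosen by its template share. CDR3s of 12 residues made up 54.5% of TCRBV14-01 templates but 12.2% of its rearrangements, against 13.9% of templates and 9.72% of rearrangements with the other V genes.

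**Figure D5:**
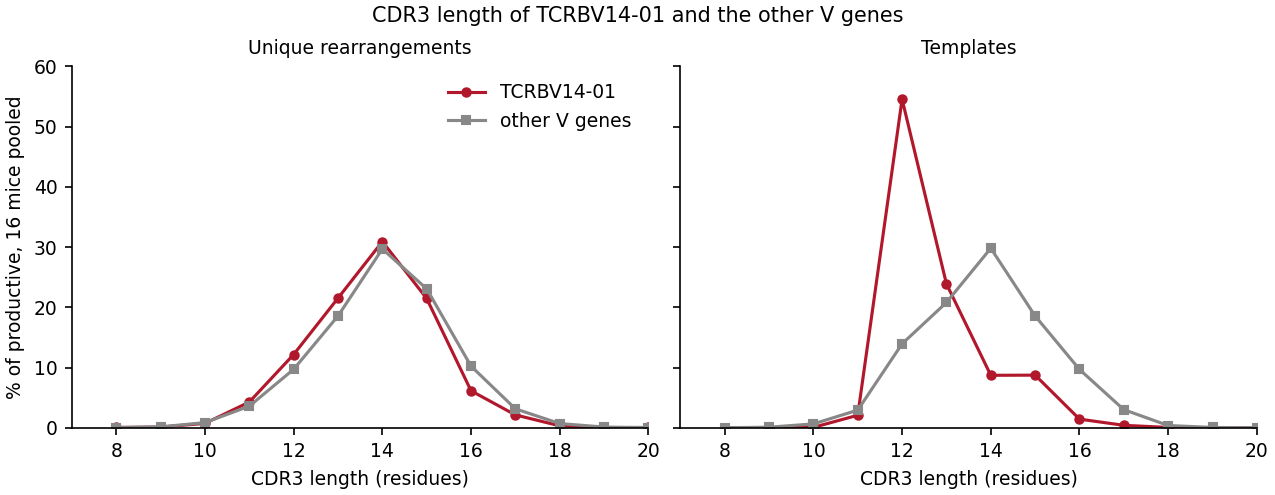
CDR3 length in residues against percent of productive rearrangements (left) and of productive templates (right), all 16 tumors pooled, for TCRBV14-01 (red circles) and the other V genes (grey squares). The curves nearly coincide on the left, and on the right TCRBV14-01 peaks at 12 residues with 54.5% where the other V genes peak at 14 residues with 29.8%.

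Within single tumors, 12-residue CDR3s held 92.6%, 24.5%, 7.33% and 74.6% of TCRBV14-01 templates in Control and 56.8%, 6.25%, 33.7% and 66.6% in Ant08. They held 2.81%, 73.0%, 75.8% and 27.6% in PD1 and 32.3%, 27.7%, 9.11% and 41.2% in Ant08+PD1. The tumors over 50% were those led by the 12-residue family or by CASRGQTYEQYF, together with Ant08 replicate 1, where 2 family clones stood just behind the leading one.

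TCRBV14-01 junctions carried more added bases and lost more of the V end than the average. Inserted nucleotides averaged 3.97 per unique productive rearrangement against 3.55 for the other V genes, a difference of 0.419 (SD 0.224, n = 16), higher in 15 of 16 tumors (sign-flip permutation test, two-sided, adjusted p 0.000183). This was the highest of the 21 V genes tested, of which 17 (81%) passed, with TCRBV24-01 next at 0.389, within its spread. V deletions averaged 3.13 nucleotides against 2.63, a difference of 0.496 (SD 0.241, n = 16), higher in 16 of 16 tumors (same test, adjusted permutation p 4.27e-05), where 20 of 21 V genes (95.2%) passed. Without near copies, trimming peaked at 5 bases (25.2% of rearrangements), 2 bases (21.4%) and 4 bases (17.6%).

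The second D gene, TCRBD02-01, was found in 41.1% of TCRBV14-01 rearrangements with a resolved D gene and in 48.3% of the others, a difference of -7.18 percentage points (SD 6.17, n = 16), lower in 15 of 16 tumors (sign-flip permutation test, two-sided, adjusted p 0.000356). Of 21 V genes 13 (61.9%) passed. The out-of-frame rearrangements showed a difference of -0.704 points (permutation adjusted p 0.762). In them the other junction differences were larger than in productive ones, 0.714 inserted nucleotides (permutation adjusted p 0.000214) and 1.00 deleted V bases (permutation adjusted p 0.000171). Weighted by templates, the differences in insertions, V deletions and D gene use no longer passed, at permutation adjusted p 0.0698, 0.367 and 0.980.

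Among the V genes compared, no template share rose closely with that of TCRBV14-01 over the 16 tumors. The 3 highest Spearman coefficients among 23 V genes compared were 0.185 for TCRBV16-01, 0.150 for TCRBV19-01 and 0.118 for TCRBV29-01. The coefficient farthest from 0 was negative, -0.668 for TCRBV15-01, a gene named after its value was seen. These are descriptions only, since all V genes of a tumor share its library and their shares sum to the whole.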

How the data were processed

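T cells of 16 tumors, 4 per group, were surveyed with the immunoSEQ assay, a multiplex of V and J primers whose bias is corrected with a synthetic repertoire. The deposited template counts, whole numbers made by the service for the authors, came 1 per unique rearrangement with its V, D and J gene, frame, CDR3 length, V deletions and insertions. Columns for reads were empty, and the aligner and genome build are not given in the sources used here. Groups and replicate numbers came from the titles. The sample names inside the deposited values carry other numbers, but their tags match the group. Total templates per sample were 11317 to 99411, and this depth sets the Wilson 95% intervals, which cover counting error only.

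Counts per V gene were tested with edgeR 4.0.16 (quasi-likelihood, all 16 samples in 1 fit, library size productive templates, Benjamini-Hochberg over 33 V genes), with DESeq2 1.42.0 as an alternative, in R 4.3.3. Within-sample differences were tested by flipping the signs of the 16 differences in all possible ways, adjusted over 20 or 21 V genes with at least 10 unique rearrangements per sample, or over 252 V and J gene pairs (12 J genes of at least 0.5%), at 0.05, in Python 3.11.15 with numpy 2.4.6 and pandas 2.3.3. Both steps were tested on simulated data. Out-of-frame rows were matched to productive ones with edlib 1.3.9.post1 (at most 2 edits, at least 50 times the templates). Clones named are the leading one of each sample, the 5 most widespread CDR3s and the 5 most frequent 4-residue strings. The family and clones of at least 1% were named after their values were seen. Alternatives were TMM, filterByExpr, unique rearrangements, no leading or single-template rearrangements, out-of-frame rows, no shared rearrangements, template weights, a replicate block and leaving out each sample. The gene and all lists were chosen with earlier results of these data known. Coordinates and the protein sequence are not reported.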

Additional observations from a re-analysis of the deposited data

Results flagged for a closer look

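Of 36 sets of 4 tumors examined for a value far from the others, 1 stood out. The mean number of V bases deleted in TCRBV14-01 rearrangements was 2.72 in Ant08 replicate 1, against 3.08 to 3.14 in the other Ant08 tumors. Chance gives about 1 such set in 20.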

How the results depend on the processing

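For TCRBV14-01, 209 of 225 alternative values over 10 results kept their direction and their side of the threshold or stayed within the spread. Most of them left out 1 tumor, and a tumor outside the compared groups hardly moved the edgeR fold changes. The spread allowed for Ant08+PD1 over Control was 1.08, so a move from -2.03 to -1.0 counted as kept. The tally is therefore a weak measure of stability. The Ant08 over PD1 log2 fold change was 0.0281 with unique rearrangements and 0.62 without leading rearrangements. The Ant08+PD1 over Control log2 fold change was 0.36 in out-of-frame rows, -0.27 with unique rearrangements, -1.0 without leading rearrangements and -0.43 without the 12-residue family, an alternative added after seeing the data. Leaving out each tumor gave -1.24 to -0.29 for Ant08 over PD1 and -2.38 to -1.56 for Ant08+PD1 over Control. V genes called between Ant08 and PD1 then numbered 0 to 1, with 1 without PD1 replicate 3 or Ant08+PD1 replicate 1. J genes past the threshold were 3 weighted by templates, 0 in out-of-frame rows and 2 without single templates, and 1 to 2 when tumors were left out, with 2 without PD1 replicate 2. Insertions (0.44) and V deletions (0.36) did not pass when weighted by templates. The D gene difference did not pass at -0.78 weighted by templates, -0.70 out of frame and -5.96 without single templates. The causes were not tested. The same replicate number in 2 groups only names the tumors (median correlation of their deviations -0.0381 over 24 pairs), and with the replicate number as a block the log2 fold changes were -1.09 for Ant08 over PD1 (edgeR adjusted p 0.556) and -1.69 for Ant08+PD1 over Control. Near copies counted once, also added later, ended no call. Depth limits the shares of PD1 replicate 4, which had the fewest productive templates (7180) and 63 unique TCRBV14-01 rearrangements.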
